A study of Mus musculus with 23 samples.

Results

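The genes described here are the nuclear-encoded genes of the mitochondrial respiratory chain, measured in 3 kinds of dendritic cell sorted from mouse spleen. They were taken as all probe sets that name 1 gene whose symbol starts with Nduf, Sdh followed by a, b, c or d, Uqcr, Cox4, Cox5, Cox6, Cox7, Cox8 or Atp5. This gave 119 of 28853 probe sets, for 93 of 19938 genes, and the brightest probe set stood for each gene. Of the 93 genes, 89 were above the array median on at least 3 of 23 arrays and were tested among 12157 genes. The 4 that were above it on 0 arrays are isoforms known from other tissues or states: Cox7b2 (testis), Cox8b (heart and muscle), Cox8c (testis) and Ndufa4l2 (induced by low oxygen). The symbol rule also takes in assembly factors, so the 89 hold 73 common subunits, 11 assembly factors, 4 tissue-restricted isoforms of complex IV (Cox4i2, Cox6a2, Cox6b2 and Cox7a1) and Cox7a2l, which joins complexes III and IV into supercomplexes. Cox7c and Ndufb4 were measured only by probe sets that name several genes and were not tested.

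The series compared conventional dendritic cells of type 1 (cDC1), which excel at presenting antigen to CD8 T cells, conventional dendritic cells of type 2 (cDC2), which mainly present to CD4 T cells, and plasmacytoid dendritic cells (pDC), which secrete type I interferon. Each was sorted from mice labelled WT and from mice labelled Bcl6cKO, written cKO here, a conditional knockout of Bcl6, a gene for a transcriptional repressor. There were 3 WT and 4 cKO arrays of cDC1, 3 WT and 5 cKO arrays of cDC2, and 3 WT and 5 cKO arrays of pDC. Cells were freed from the spleens with DNase I and collagenase B, and biotinylated cDNA was made from picogram to nanogram amounts of RNA. The Cre driver, the strain, the ages and the sort gates are not given in the sources used here. Whether each array is a separate animal is not stated, so the p-values below rest on the spread between arrays, which may be technical.

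Markers of cDC1 and pDC followed the labels in either genotype. All 6 cDC1 markers (such as Xcr1 and Clec9a) were called higher in cDC1 than in cDC2 and than in pDC. All 6 pDC markers (such as Siglech and Ccr9) were called lower in both conventional types than in pDC. Markers of cDC2 were mixed. All 6 (such as Sirpa and Cd209a) were called lower in cDC1 than in cDC2, in either genotype. Against pDC, 2 of 6 were called higher and 2 lower in WT cDC2, and 3 higher and 2 lower in cKO cDC2. Between genotypes, 3 of 6 were higher in cKO than in WT cDC1. In cKO against WT cDC2, 2 were higher and 2 lower. Bcl6 itself ranged from 7.02 to 8.12 (log2 intensity) in WT cDC1 and from 8.06 to 8.74 in cKO cDC1, from 7.02 to 7.83 and 7.51 to 8.61 in cDC2, and from 5.40 to 6.33 and 5.15 to 6.42 in pDC. It was called in none of the 3 genotype comparisons (adjusted p = 0.598, 0.756 and 1.0). The probe set for Bcl6 was not called lower in cKO (differences 0.96, 0.69 and -0.15), and the deleted part of the gene is not given, so this level does not check the genotype and the names WT and cKO are those of the labels. By array median intensity the 23 arrays were divided into 3 intensity sets, called A (8 arrays, medians 29.3 to 31.0), B (6 arrays, 31.6 to 34.3) and C (9 arrays, 38.9 to 41.2). No label names such sets. Arrays of a group shared 88 to 368 equal values of 28853 within A and B together, 1005 to 2436 within C, and 0 to 3 between C and the other sets, so C stood apart while A and B were divided by their medians alone. Each set holds arrays of all 6 groups, so differences are also given within sets. In bulk samples, fewer cells of a type and less RNA per cell cannot be told apart.

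The respiratory chain sits in the inner mitochondrial membrane. Complex I (NADH dehydrogenase) and complex II (succinate dehydrogenase) pass electrons to ubiquinone, complex III hands them to cytochrome c, complex IV (cytochrome c oxidase) passes them to oxygen, and complex V (ATP synthase) uses the proton gradient so built to make ATP. Some complex IV subunits have a common form and a second form restricted to tissues such as muscle, heart, lung or testis, and dedicated assembly factors insert cofactors or stabilise half-built complexes.

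Promoters are shown for 4 complex IV genes, to set common subunits beside tissue-restricted isoforms. The isoforms Cox6a2 and Cox6b2 had the widest ranges between group means (3.39 and 3.15, log2). Cox7a1 (1.02) and Cox4i2 (0.42) varied less, and the common subunit Ndufb8 (1.24) varied more than either. Each line gives the 250 bases before the gene's start from RefSeq (build GRCm38.p6), 5′ to 3′ on the gene's own strand, with matches to the searched motifs in capitals. Cox6a1 (chr5:115348959-115349208, minus strand) and Cox6b1 (chr7:30626115-30626364, minus strand) are common subunits, and Cox6b2 (chr7:4753095-4753344, minus strand) and Cox7a1 (chr7:30183921-30184170, plus strand) are restricted isoforms. 
Cox6a1: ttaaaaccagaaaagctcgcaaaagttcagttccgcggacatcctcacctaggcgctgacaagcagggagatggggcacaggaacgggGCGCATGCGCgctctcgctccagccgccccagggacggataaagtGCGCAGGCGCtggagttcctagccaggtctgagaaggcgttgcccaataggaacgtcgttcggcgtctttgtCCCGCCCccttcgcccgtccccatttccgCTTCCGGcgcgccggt
Cox6b1: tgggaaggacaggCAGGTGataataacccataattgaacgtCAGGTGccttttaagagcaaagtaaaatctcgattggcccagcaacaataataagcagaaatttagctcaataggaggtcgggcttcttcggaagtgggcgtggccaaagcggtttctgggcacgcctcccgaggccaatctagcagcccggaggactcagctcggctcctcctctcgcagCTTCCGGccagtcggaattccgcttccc
Cox6b2: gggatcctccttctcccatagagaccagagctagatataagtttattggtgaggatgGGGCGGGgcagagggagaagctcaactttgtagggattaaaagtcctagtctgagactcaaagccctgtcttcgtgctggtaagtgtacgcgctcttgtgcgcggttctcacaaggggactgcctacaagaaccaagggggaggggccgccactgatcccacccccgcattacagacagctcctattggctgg
Cox7a1: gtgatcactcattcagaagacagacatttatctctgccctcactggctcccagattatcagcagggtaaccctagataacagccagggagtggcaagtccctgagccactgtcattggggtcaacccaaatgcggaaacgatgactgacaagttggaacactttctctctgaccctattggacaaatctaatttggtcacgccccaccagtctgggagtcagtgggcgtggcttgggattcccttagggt
The Cox6a1 window held 2 matches to the NRF1 motif, starting 162 and 117 bases before the gene's start, 1 to GABPA and 1 to SP1, with 26 CpG dinucleotides. The Cox6b1 window held 1 GABPA match and 2 E-boxes, with 14 CpG. The Cox6b2 window held 1 SP1 match and 8 CpG, and the Cox7a1 window held no match and 4 CpG.

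Promoter windows were found for 77 of the 93 genes (82 windows), and Cox6a2 and Ndufaf6 were not among them. On either strand, the motif of NRF1 (GCGCA, any base, then GCGC), a factor known for binding respiratory chain promoters, was in 17.1% of these windows against 3.74% of all 32851 windows. The motif of GABPA (CCGGAAG), another such factor, was in 18.3% against 6.91%, and that of YY1 (AANATGGCG) in 4.88% against 1.12%. Shares were closer for SP1 (GGGCGGG, 30.5% against 23.4%), the TATA box (TATAAA, 9.76% against 12.4%) and the E-box (CAGGTG, 18.3% against 17.2%). The BCL6 motif (TTCCTNGAA) was in 1 window, that of Ndufa8 (1.22% against 1.31%), and the PU.1-IRF composite motif (GGAA, any 2 bases, then GAAA) in 0 windows against 2.30%. The 82 windows had a median of 14.5 CpG and 57% GC, against 6 CpG and 52.4% GC in all windows. The NRF1, GABPA, YY1 and SP1 motifs each hold a CpG, and the shares were not matched for CpG or GC. The searched motifs do not contain one another, and a match is a description of letters only. The 4 windows of restricted isoforms (Cox6b2, Cox7a1, Cox7b2 and Cox8b) held 1 to 9 CpG with a median of 6, which is also the median of all windows. None of the 4 had an NRF1, GABPA or YY1 match. The other 78 windows held 4 to 39 CpG with a median of 15.

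Across the 6 groups the 89 genes had a median range close to that of all genes and fewer wide ranges. The difference between the highest and lowest group mean had a median of 0.66 (log2) over the 89 genes and 0.63 over all 12157, and it passed 1 in 16.9% of the former and 27.6% of the latter. The widest ranges were those of Cox6a2 (3.39), Cox6b2 (3.15), Ndufaf6 (1.68) and Sdhaf1 (1.52), which are restricted isoforms or assembly factors. The narrowest were those of Sdhaf3 (0.23), Ndufs3 (0.27), Sdhaf2 (0.29) and Sdha (0.29), and 3 of these 4 are complex II genes. Complex II also had 3 wide ranges among its 8 tested genes (37.5% over 1).

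Group means ran cDC1, then cDC2, then pDC in 42 of the 89 genes in WT (47.2%, against 23% of all genes) and in 65 in cKO (73.0% against 23.8%). All 42 of the WT genes kept that order in cKO, while 13.7% of all genes had it in both genotypes. The pDC mean was the lowest in both genotypes in 60 of the 89 genes, against 30.9% of all genes. By log2 intensity, cKO cDC1 had the highest of the 6 means in 69 genes (23.5% of all genes) and cKO pDC the lowest in 59 (16.8% of all genes).

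The mean over the 89 genes, taken relative to each array's median, was 4.15 ± 0.24 (SD, n = 3) in WT cDC1, 4.06 ± 0.15 (n = 3) in WT cDC2 and 3.85 ± 0.35 (n = 3) in WT pDC. In the cKO groups it was 4.29 ± 0.17 (n = 4), 4.10 ± 0.26 (n = 5) and 3.75 ± 0.31 (n = 5). The groups overlapped, and the order held within each intensity set: 3.97, 3.85 and 3.62 for cDC1, cDC2 and pDC in set A, 4.26, 4.15 and 3.86 in set B, and 4.39, 4.28 and 3.91 in set C. The lowest array was cKO pDC array 4 (3.35), a set C array, and WT pDC array 3 (4.23) and cKO pDC array 5 (4.16), also of set C, lay among the conventional dendritic cells.

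**Figure D1:**
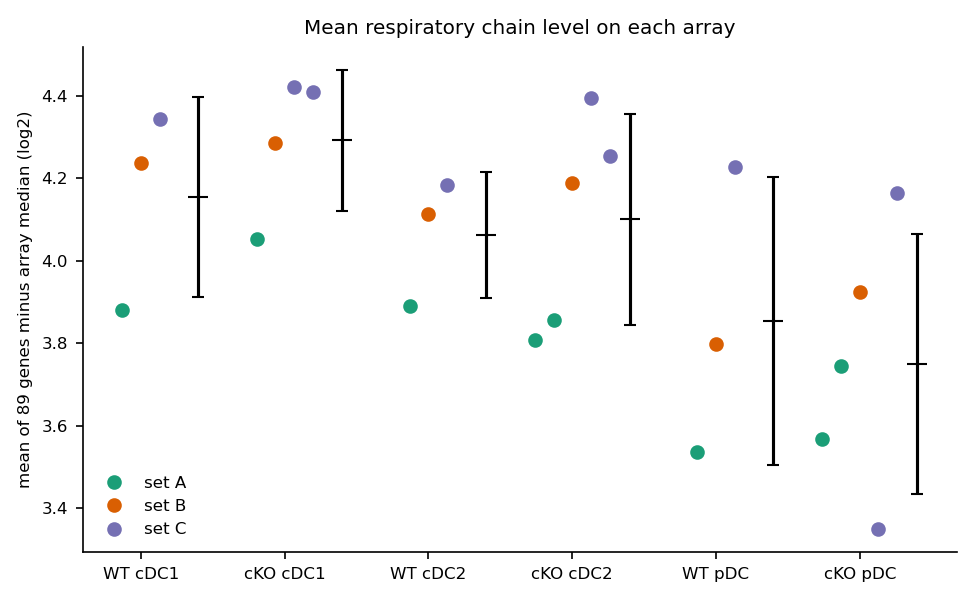
Mean log2 intensity of the 89 tested respiratory chain genes minus the array median, by array (points, coloured by intensity set) and group, with the group mean ± SD. cDC1 arrays sit highest and pDC arrays lowest on average (4.29 in cKO cDC1 against 3.75 in cKO pDC), and the groups overlap.

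Few of the genes passed the test between WT cell types. In WT cDC1 against WT cDC2, 1 of the 89 genes was called higher (Ndufaf6) and 1 lower (Cox6b2), against 3.02% and 3.04% of all 12157 genes (6.05% in either direction). In WT cDC1 against WT pDC, 1 was higher (Ndufaf6) and 1 lower (Cox6a2), against 8.37% and 5.14% (13.5% in either). In WT cDC2 against WT pDC, 1 was higher (Cox6b2) and 1 lower (Cox6a2), against 7.93% and 4.80% (12.7%). A count of 1 of 89 lies under each of these shares. Median differences were 0.11, 0.27 and 0.13 over the 89 genes, against 0.04, 0.05 and 0.02 over all genes, with 63, 79 and 63 of the 89 above 0. These medians rested on single arrays: leaving out 1 array at a time gave -0.10 to 0.35, 0.01 to 0.53 and -0.15 to 0.42, below 0 without WT cDC1 array 3 or WT cDC2 array 1 in the first and without WT pDC array 1 or WT cDC2 array 3 in the last. With quantile normalization they were 0.05, 0.10 and 0.03.

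The same comparisons in the cKO arrays had more arrays a group and more calls. In cKO cDC1 against cKO cDC2, 2 genes were called higher (Ndufaf6 and Cox7a1) and 1 lower (Cox6b2), against 4.0% and 4.95% of all genes (8.95% in either direction). In cKO cDC1 against cKO pDC, 17 were higher and 1 (Cox6a2) lower, against 12.5% and 7.90% (20.4%). Both of these counts of higher genes include Cox7a1, which is dim and whose calls are a description only. In cKO cDC2 against cKO pDC, 6 were higher and 1 (Cox6a2) lower, against 13.5% and 7.27% (20.8%). In this fit, the share called higher was above that of all genes in cDC1 against pDC and below it in cDC2 against pDC. The cDC2 side depended on the fit. With the intensity set as a term in the model, 36 of 89 genes were higher in cKO cDC2 than in cKO pDC. Beside 2934 of all 12157 genes, that share was above the one of all genes. Median differences were 0.28, 0.61 and 0.36, against 0.04, 0.05 and 0.02 over all genes, with 73, 84 and 79 of the 89 above 0.

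The counts depended on how the array differences were treated. With the intensity set as a term in the model, the 6 counts of called genes (higher and lower together) became 5, 14, 11, 12, 56 and 37 in place of 2, 2, 2, 3, 18 and 7. The share of all genes called rose too, to 15.5%, 29.6%, 29.1%, 20.2%, 38.3% and 39.2%. A block for replicate number, which coincides with the intensity set among WT arrays, was also fitted. With it, WT cDC1 against WT cDC2 gave 4 higher and 3 lower (16.3% of all genes called in either direction). WT cDC1 against WT pDC gave 10 higher and 1 lower (22.5%), and WT cDC2 against WT pDC 3 higher and 1 lower (15.9%). The WT counts stayed under the share of all genes in both fits.

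Complex IV held the largest differences, and they lay in its tissue-restricted isoforms. Cox6a2, the muscle and heart form of subunit 6a, read 8.90, 9.34 and 9.91 (log2 intensity) on the 3 WT pDC arrays and 8.57, 8.82, 9.26, 9.01 and 9.68 on the 5 cKO pDC arrays. In cDC1 it read 5.96, 6.30 and 5.72 (WT) and 5.89, 6.26, 6.0 and 5.85 (cKO), and in cDC2 6.25, 6.18 and 6.05 (WT) and 6.05, 5.97, 6.37, 6.21 and 5.90 (cKO). Every pDC array lay above every cDC1 and cDC2 array, and the 4 conventional groups overlapped one another.

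Cox6a2 was 10.5-fold lower in WT cDC1 than in WT pDC (log2 difference -3.39, SE 0.26, 95% interval -3.94 to -2.84, adjusted p = 1.66e-09) and 9.31-fold lower in WT cDC2 than in WT pDC (-3.22, SE 0.26, adjusted p = 6.19e-09). In cKO it was 8.39-fold lower in cDC1 (-3.07, SE 0.22, adjusted p = 1.61e-10) and 7.83-fold lower in cDC2 (-2.97, SE 0.20, adjusted p = 1.33e-10). Set by set, the WT cDC1 difference was -2.95 in A, -3.04 in B and -4.19 in C, and all 4 calls held under every alternative. Cox6a1, the common form of the same subunit, read 10.60 to 12.23 in WT pDC and 11.27 to 12.38 in WT cDC1, and was called in no comparison.

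Cox6b2, the testis form of subunit 6b, was highest in cDC2. It read 7.84, 7.34 and 8.93 on the WT cDC2 arrays and 8.01, 7.11, 7.62, 9.52 and 8.98 on the cKO cDC2 arrays. In cDC1 it read 5.57, 5.85 and 6.69 (WT) and 5.35, 5.40, 6.40 and 6.17 (cKO), and in pDC 5.08, 4.81 and 6.0 (WT) and 4.84, 4.98, 5.03, 5.40 and 5.26 (cKO). Within each genotype every cDC2 array lay above every cDC1 and pDC array.

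Cox6b2 was 4.01-fold lower in WT cDC1 than in WT cDC2 (log2 difference -2.0, SE 0.50, 95% interval -3.04 to -0.96, adjusted p = 0.0138) and higher in WT cDC2 than in WT pDC (log2 difference 2.74, SE 0.50, adjusted p = 0.000376). In cKO it was 5.35-fold lower in cDC1 than in cDC2 (-2.42, SE 0.41, adjusted p = 0.00023) and higher in cDC2 than in pDC (3.15, SE 0.39, adjusted p = 1.26e-06). Between cDC1 and pDC the difference was 0.74 in WT (adjusted p = 0.448, and 0.0275 with the replicate block) and 0.73 in cKO (adjusted p = 0.254). The WT cDC1 to cDC2 difference was -2.28, -1.49 and -2.24 in sets A, B and C. In pDC the probe set was above the array median on 2 of 3 WT and 2 of 5 cKO arrays, so its signal there was dim and no fold against pDC is given. The WT cDC1 and cDC2 call was lost without WT cDC1 array 1 or 2, without WT cDC2 array 3, or without the 3 WT arrays numbered 1 (adjusted p up to 0.156). Cox6b1, the common form, read 10.99 to 11.76 in WT cDC1, 11.10 to 11.88 in WT cDC2 and 10.49 to 11.54 in WT pDC, ranges that overlap, and was called in no comparison.

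Cox7a1, the heart and muscle form of subunit 7a, was called higher in cKO cDC1 than in the other cKO cell types. It read 5.32, 5.97, 5.87 and 5.92 in cKO cDC1, 4.52, 4.75, 4.48, 5.19 and 4.79 in cKO cDC2, and 4.77, 4.63, 4.71, 4.64 and 5.32 in cKO pDC. In WT it read 5.28, 4.98 and 5.69 in cDC1, 4.78, 4.91 and 4.99 in cDC2, and 4.5, 5.20 and 5.06 in pDC. cKO cDC1 did not overlap cKO cDC2, and its lowest array met the highest cKO pDC array.

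The log2 difference of Cox7a1 was 1.02 between cKO cDC1 and cKO cDC2 (SE 0.21, adjusted p = 0.0016) and 0.95 between cKO cDC1 and cKO pDC (SE 0.21, adjusted p = 0.00154). In WT the cDC1 to cDC2 difference was 0.42 (adjusted p = 0.569), and the test of whether the cDC1 to cDC2 difference itself changed with genotype gave 0.60 (SE 0.33, adjusted p = 1.0). The signal was dim: above the array median on 4 of 4 cKO cDC1 arrays, on 2 of 3 WT cDC1 arrays, on 1 of 3 WT pDC arrays and on none of the others. Cox7a1 thus entered the test almost entirely through cDC1, where it is high, so its calls are a description and no fold is given. Cox4i2, the lung and low-oxygen form of subunit 4, had group means between 5.38 and 5.80 and was called nowhere.

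**Figure D2:**
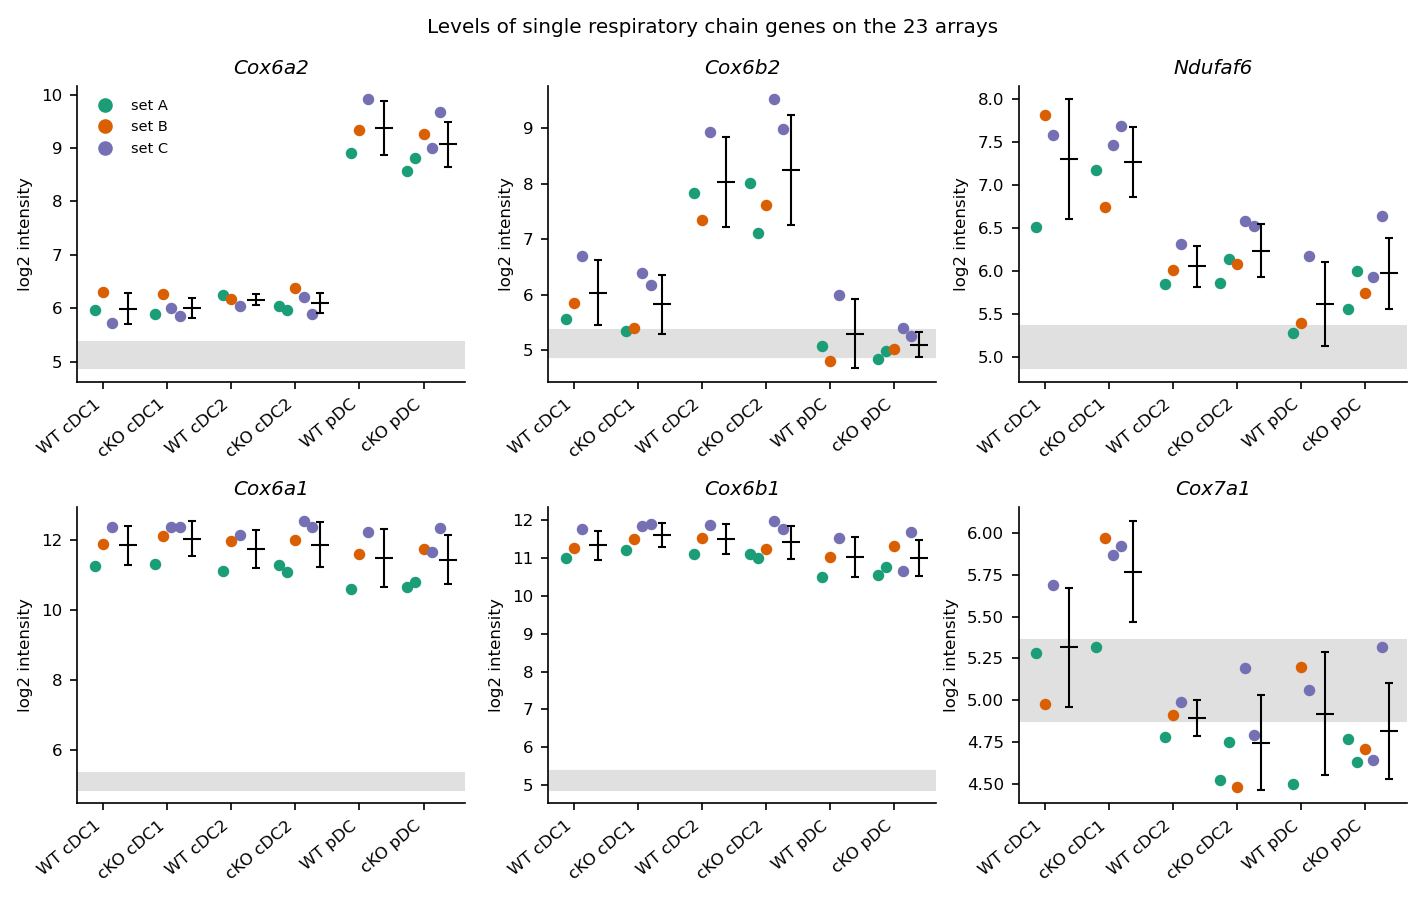
Log2 intensity of 6 genes on each of the 23 arrays (points, coloured by intensity set), by group, with the mean ± SD in black and the range of array medians as a grey band. Cox6a2 stands at 8.57 or above on all 8 pDC arrays and at 6.37 or below elsewhere, Cox6b2 is highest in cDC2 and Ndufaf6 in cDC1, while the groups of Cox6a1 and Cox6b1 overlap.

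Among assembly factors, Ndufaf6 was highest in cDC1. It is required to build complex I, and read 6.51, 7.81 and 7.58 in WT cDC1 and 7.17, 6.75, 7.47 and 7.68 in cKO cDC1. In cDC2 it read 5.85, 6.01 and 6.32 (WT) and 5.86, 6.14, 6.08, 6.58 and 6.53 (cKO), and in pDC 5.28, 5.40 and 6.18 (WT) and 5.56, 6.0, 5.75, 5.93 and 6.64 (cKO). Within each genotype all cDC1 arrays lay above all cDC2 and pDC arrays, and cDC2 and pDC overlapped.

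Ndufaf6 was 2.36-fold higher in WT cDC1 than in WT cDC2 (log2 difference 1.24, SE 0.33, adjusted p = 0.0245) and 3.20-fold higher than in WT pDC (1.68, SE 0.33, adjusted p = 0.000889). In cKO it was 2.04-fold higher than in cDC2 (1.03, SE 0.28, adjusted p = 0.0168) and 2.45-fold higher than in pDC (1.29, SE 0.28, adjusted p = 0.00116). The WT cDC1 to cDC2 difference was 0.66 in set A, 1.81 in B and 1.25 in C. That call was lost when only the groups compared were fitted, and without WT cDC1 array 2 or 3 or WT cDC2 array 1 or 2 (adjusted p up to 0.163).

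Sdhaf1, which helps load iron-sulfur clusters into complex II, read 8.65, 8.72, 8.49, 9.75 and 9.94 in cKO cDC2 and 7.33, 7.42, 7.26, 7.96 and 8.27 in cKO pDC. All 5 cDC2 arrays lay above all 5 pDC arrays, a 2.75-fold difference (1.46, SE 0.43, adjusted p = 0.0163). In WT the same difference was 1.26 (adjusted p = 0.172), and passed the threshold with the replicate block (adjusted p = 0.00472). Ndufaf7, a complex I assembly factor, was higher in cKO cDC2 than in cKO pDC (0.77, SE 0.25, adjusted p = 0.0277) and differed by 0.77 in WT (adjusted p = 0.14, and 0.0472 with the replicate block). Sdhaf4, which acts on the flavin-bearing subunit of complex II, was higher in cKO cDC1 than in cKO pDC (1.15, adjusted p = 0.0161).

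Most calls of common subunits were in cKO cDC1 against cKO pDC. There 13 of 73 common subunits were called higher and none lower, against 12.5% and 7.90% of all genes. Of the 73 differences 72 were above 0. By complex, 4 of 41 tested genes were called higher in complex I, 2 of 8 in complex II, 4 of 8 in complex III, 4 of 15 in complex IV and 3 of 17 in complex V. The complex I count lies under the 12.5% of all genes, and the complex IV count includes Cox7a1, whose calls are a description. The median difference was 0.55, 0.31, 0.62, 0.65 and 0.64 in the same order.

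In complex I the calls were Ndufs4 (1.18, SE 0.31, adjusted p = 0.00708), an accessory subunit of the matrix arm, and the accessory membrane arm subunits Ndufb8 (1.24, SE 0.36, adjusted p = 0.014) and Ndufc2 (0.88, adjusted p = 0.0402), beside Ndufaf6. Ndufs4 read 10.42, 10.70, 11.02 and 11.03 in cKO cDC1 and 9.18, 9.55, 9.80, 9.24 and 10.30 in cKO pDC, without overlap. Ndufb8 read 9.49, 9.69, 10.29 and 10.43 against 8.21, 8.68, 8.86, 8.33 and 9.59, where the highest pDC array passed the lowest cDC1 array. The electron-carrying core subunits Ndufs1 (0.19, adjusted p = 0.594) and Ndufv1 (0.15, adjusted p = 0.826) did not pass the test.

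In complex II a membrane anchor was called and the catalytic head was not. Sdhd, an anchor that helps bind ubiquinone, read 7.51, 7.73, 8.20 and 7.73 in cKO cDC1 and 6.77, 6.69, 6.98, 6.61 and 7.36 in cKO pDC. These did not overlap, and Sdhd was higher by 0.91 (SE 0.23, adjusted p = 0.00486). The differences were -0.12 for Sdha, the flavoprotein (adjusted p = 0.834), 0.42 for Sdhb, the iron-sulfur subunit (adjusted p = 0.383), and 0.16 for Sdhc, the other anchor (adjusted p = 0.584).

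In complex III the called genes were Uqcrfs1, the Rieske iron-sulfur protein (0.99, adjusted p = 0.0296), the core protein Uqcrc2 (0.59, SE 0.17, adjusted p = 0.0149), and the small subunits Uqcrb (0.82, adjusted p = 0.0384) and Uqcr10 (0.93, adjusted p = 0.0445). Uqcrc2 read 9.33, 9.32, 9.20 and 9.09 in cKO cDC1 and 8.79, 8.85, 8.73, 8.08 and 8.75 in cKO pDC, and did not overlap. The partner core protein Uqcrc1 differed by 0.64 (adjusted p = 0.063) and was called in cKO cDC2 against cKO pDC instead (0.79, SE 0.23, adjusted p = 0.013). There it read 9.55, 9.31, 9.33, 10.24 and 10.03 against 8.82, 9.11, 8.42, 9.10 and 9.06, without overlap.

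In complex IV, Cox5a (1.08, adjusted p = 0.0354), Ndufa4 (1.07, adjusted p = 0.0364), first described as a complex I subunit, and Cox7a2l (0.82, adjusted p = 0.0384) were called higher in cKO cDC1 than in cKO pDC. Cox4i1 (0.45, adjusted p = 0.45) and Cox5b (0.63, adjusted p = 0.132) were not called. In complex V the calls were Atp5md, a small membrane subunit (1.21, SE 0.31, adjusted p = 0.0063), Atp5e of the central stalk (0.97, adjusted p = 0.0433) and Atp5g3 of the rotating ring (0.87, adjusted p = 0.0467). The catalytic head subunits Atp5a1 (0.52, adjusted p = 0.182) and Atp5b (0.48, adjusted p = 0.329) were not. All 17 complex V and all 8 complex III differences were above 0.

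In cKO cDC2 against cKO pDC the 6 genes called higher were Cox6b2, Sdhaf1, Uqcrc1, Ndufaf7, Sdhd (0.61, adjusted p = 0.0462) and Ndufb8 (0.95, adjusted p = 0.0474). The core complex I subunit Ndufv1 did not overlap between these groups but missed the threshold (0.72, adjusted p = 0.0597). Groups did not overlap, with the conventional type higher, for 5 of the 89 genes in each of the cDC1 and cDC2 comparisons with cKO pDC, which is 5.62% against 10.8% and 9.61% of all genes.

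**Figure D3:**
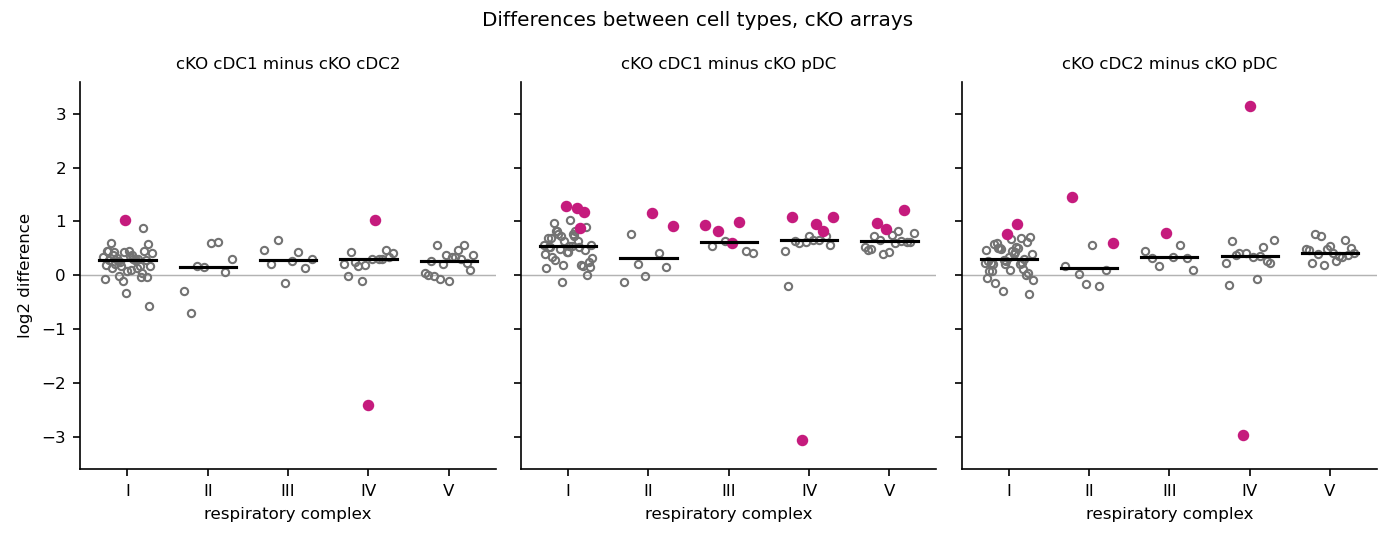
Log2 difference between cKO cell types for each tested gene, by complex (I to V), with called genes filled in magenta and the median as a bar. Most points lie above 0 in cDC1 against pDC (84 of 89), while Cox6a2 lies at -3.07 and Cox6b2 at 3.15 in cDC2 against pDC.

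The cDC1 to pDC counts rested on a few arrays. Leaving out 1 array at a time gave 7 to 38 called genes in place of 18: 7 without cKO cDC1 array 3 or 4, 11 without cKO cDC1 array 2, 8, 9 and 8 without cKO pDC arrays 1, 2 and 4, and 38 without cKO pDC array 5. The cDC2 to pDC count of 7 became 2, 3 and 4 without cKO cDC2 arrays 4, 5 and 3. It became 4 without cKO pDC array 1 or 2, and 10 without cKO pDC array 5. No share of all genes was taken for these fits. Whether the counts moved more than those of all genes was therefore not tested. Set by set (A, B, C), the median over the 89 genes was 0.48, 0.31 and 0.70 for cKO cDC1 against cKO pDC and 0.22, 0.22 and 0.61 for cKO cDC2 against cKO pDC.

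Markers of dividing cells moved with these comparisons. The 3 proliferation markers measured, taken over the array median, averaged 2.83 and 2.81 in WT and cKO cDC1, 3.40 and 3.45 in cDC2, and 0.41 and 0.59 in pDC, and all 3 were called higher in each conventional type than in pDC. The 3 B cell markers averaged 1.05 and 1.30 in pDC and from -0.76 to 0.32 elsewhere, and the 4 red pulp macrophage markers 0.37 and 0.13 in pDC and 1.12 to 1.73 elsewhere. The 3 T cell markers averaged 2.0 in cKO cDC2 and 0.69 to 1.18 in the other groups. Their part in the respiratory chain differences was not tested.

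WT and cKO arrays share no sample, so the cell type differences can be set side by side. The sign was the same in both genotypes for 73, 82 and 73 of the 89 genes in cDC1 against cDC2, cDC1 against pDC and cDC2 against pDC (82.0%, 92.1% and 82.0%), against 74.4%, 77.8% and 78.5% of all genes. Across the 89 genes the correlation of WT with cKO differences was 0.90, 0.90 and 0.94, against 0.82, 0.89 and 0.87 across all genes. These describe genes, which are not independent replicates, and the 3 extreme genes Cox6a2, Cox6b2 and Ndufaf6 carry wide ranges.

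**Figure D4:**
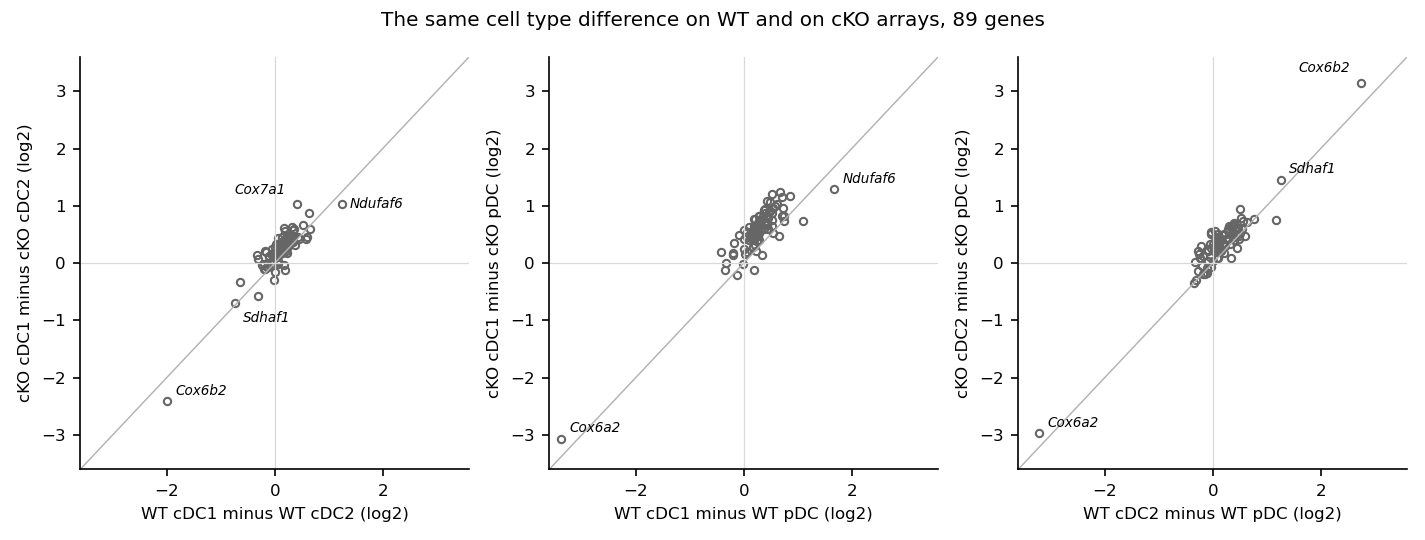
Log2 difference between cell types in WT arrays (x axis) against the same difference in cKO arrays (y axis) for the 89 genes, with the line of equality. Cox6a2 (-3.39 and -3.07 in cDC1 against pDC), Cox6b2 and Ndufaf6 lie far from 0 in both genotypes.

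No gene of the set was called between arrays labelled cKO and WT in any cell type. By limma, 0 of 89 were called in cDC1 (against 0.814% of all genes higher and 0.0165% lower), 0 in cDC2 (1.16% and 0.403%) and 0 in pDC (0.0329% and 0%). At an unadjusted p under 0.05, 2 genes were higher in cKO cDC1 (Sdhc and Sdhd) and none in cDC2 or pDC, and every alternative setting also gave 0 calls. Cox6a2 in pDC differed by -0.31 (SE 0.24, 95% interval -0.80 to 0.18), Cox6b2 in cDC2 by 0.21 (SE 0.45, -0.72 to 1.14) and Ndufaf6 in cDC1 by -0.03 (SE 0.31, -0.68 to 0.62).

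The membrane anchors of complex II gave the smallest p-values in cDC1. Sdhc read 8.79, 8.60 and 8.91 in WT cDC1 and 9.33, 9.11, 9.19 and 9.15 in cKO cDC1, and Sdhd 6.94, 7.15 and 7.45 against 7.51, 7.73, 8.20 and 7.73. All 4 cKO arrays lay above all 3 WT arrays for both genes. The differences were 0.43 for Sdhc (SE 0.18, adjusted p = 0.989) and 0.61 for Sdhd (SE 0.26, adjusted p = 1.0), and 0.55, 0.51 and 0.26 for Sdhc and 0.58, 0.58 and 0.51 for Sdhd in the 3 intensity sets. Groups without overlap and with cKO higher were 2.25% of the 89 genes and 2.94% of all genes.

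The median of the 89 genes was 0.23 in cKO cDC1 against WT cDC1 (0.06 over all genes), with 83 of 89 differences above 0, and 0.09 in cDC2 (0.07 over all genes), with 72 above 0. The cDC1 median was 0.0011 without WT cDC1 array 1, 0.44 without WT cDC1 array 3, 0.13 and 0.11 without cKO cDC1 arrays 3 and 4, and 0.11 with the replicate block. Set C, the brightest, holds cKO cDC1 arrays 3 and 4 and WT cDC1 array 3, so set and genotype are not balanced in cDC1. The cDC1 median was 0.12 with the intensity set as a term and 0.16 with arrays centred on their median. The cDC2 median was -0.08 without WT cDC2 array 1 and -0.04 and -0.01 without cKO cDC2 arrays 4 and 5, so its direction turned on 1 array. In pDC it was -0.13 (0.05 over all genes), with 22 of 89 above 0. The pDC shift lay in set C, where the median was -0.50, beside 0.13 in set A and 0.08 in set B. It was -0.04 without cKO pDC array 4, 0.16 without WT pDC array 3 and -0.46 without WT pDC array 1, so here too 1 array turned the direction. By complex, 9 of 41 genes were above 0 in complex I, 7 of 8 in complex II, 0 of 8 in complex III, 3 of 15 in complex IV and 3 of 17 in complex V.

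The tests of whether the genotype difference itself changed between cell types called none of the 89 genes by limma, and none had an unadjusted p under 0.05. The background was 0.280% of all genes for cDC1 against cDC2, 0.329% for cDC1 against pDC and 0.485% for cDC2 against pDC. The smallest p-values were those of Cox7a1 (0.60, cDC1 against cDC2), Cox7a1 again (0.56, cDC1 against pDC) and Ndufab1, the acyl carrier protein of complex I (0.54, cDC2 against pDC), each with adjusted p = 1.0.

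**Figure D5:**
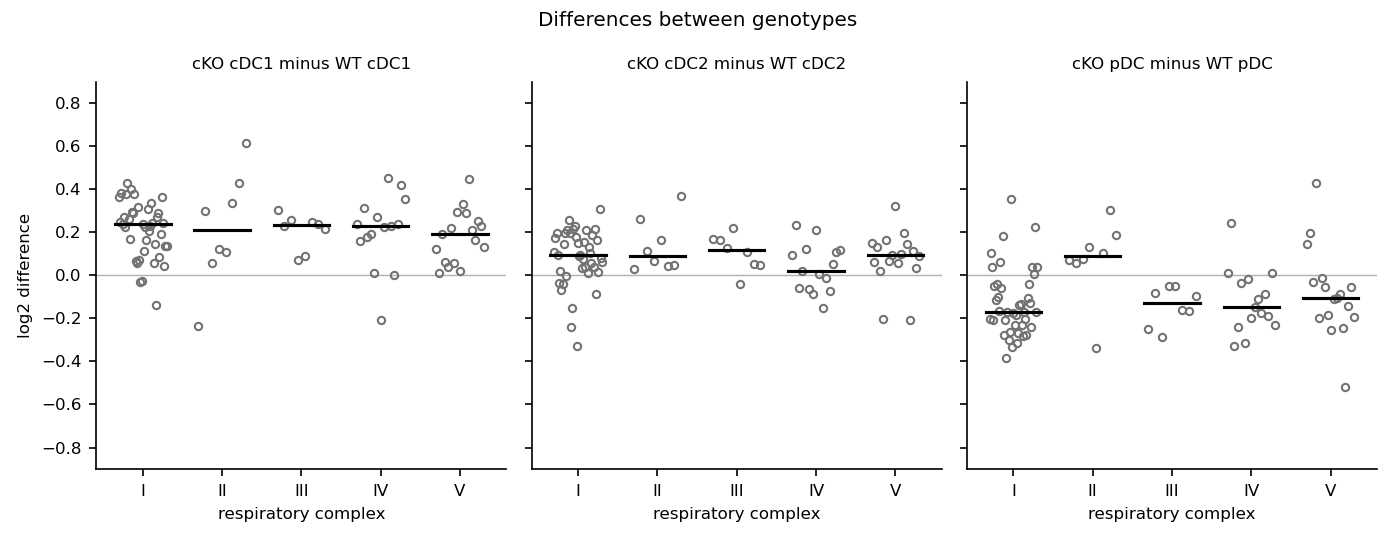
Log2 difference between cKO and WT for each tested gene, by cell type and complex (I to V), with the median as a bar. No gene was called, and the points of cDC1 lie mostly above 0 (83 of 89) while those of pDC lie mostly below (22 of 89 above).

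Lists of other mitochondrial genes were tested in the same comparison, where 12.5% of all genes were called higher. In cKO cDC1 against cKO pDC, 8 of 77 mitochondrial ribosomal proteins were higher and none lower, led by Mrpl42 (2.51), Mrpl50 (1.44) and Mrpl13 (1.18). So were 5 of 29 import and carrier genes, the outer membrane channels Vdac2 (1.20) and Vdac3 (1.08), the import proteins Timm23 (0.80) and Tomm70a (0.60) and the ATP and ADP carrier Slc25a5 (0.79). Of 17 pyruvate dehydrogenase and citric acid cycle genes 5 were higher: malate dehydrogenase Mdh2 (1.33), the succinyl-CoA ligase subunits Sucla2 (1.07), Suclg1 (1.02) and Suclg2 (0.63), and citrate synthase Cs (1.0). Of 16 genes for electron carriers and ubiquinone synthesis 3 were higher: Cycs, cytochrome c itself (1.18, adjusted p = 0.0021), Etfb (0.88) and Coq3 (0.82).

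Of 34 assembly factors outside the symbol rule, 3 were higher in cKO cDC1 than in cKO pDC, the complex V factor Tmem70 (1.35), the complex III factor Uqcc1 (0.97) and Higd2a (0.97), and the complex III factor Ttc19 was lower (-0.60). The cytosolic ribosomal proteins, measured for comparison, had 6 of 64 higher and 1, Rpl3l, lower (-1.58), and the median of the list was 0.42. Medians were 0.56 for the mitochondrial ribosome, 0.49 for import and carriers, 0.43 for the citric acid cycle, 0.26 for assembly factors and 0.12 for electron carriers. The share called higher was 29.4% for the citric acid cycle, 18.8% for electron carriers and 17.2% for import and carriers, above that of all genes, and 10.4% for the mitochondrial ribosome, 9.38% for the cytosolic ribosome and 8.82% for assembly factors, below it. In WT cDC1 against WT pDC every list lay under the 8.37% of all genes called higher. The shares there were 5.88% for the citric acid cycle, 0% for electron carriers (6.25% lower) and 3.45% for import and carriers. They were 2.60% for the mitochondrial ribosome, 0% for the cytosolic ribosome (1.56% lower) and 2.94% for assembly factors. These lists were chosen with results known. Mitochondrially encoded subunits were not analysed here.

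Glycolytic genes were also tested, against 3.02%, 8.37% and 7.93% of all genes called higher and 3.04%, 5.14% and 4.80% lower in the 3 WT comparisons. In WT cDC1 against WT cDC2, 4 of 17 were higher, hexokinase Hk3 (2.17), phosphofructokinase Pfkp (1.62), Pgam1 (1.06) and Pgk1 (1.05), and 1 was lower, the glucose transporter Slc2a1 (-1.14). In WT cDC1 against WT pDC, 7 were higher and 2 lower, with Pfkp at 2.22, Hk3 at 2.17, lactate dehydrogenase Ldhb at -2.19 and Slc2a1 at -1.45. In WT cDC2 against WT pDC 2 were higher, Hk2 (0.91) and the lactate transporter Slc16a3 (0.73), and 1, Ldhb (-2.03), was lower.

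Of 20 regulators of mitochondrial biogenesis, Ppargc1a, a coactivator of respiratory chain genes, was lower in WT cDC1 than in WT cDC2 (-1.96, adjusted p = 0.00289) and than in WT pDC (-2.24, adjusted p = 0.000338). Between cKO cell types Ppargc1a was not called. Its relative Ppargc1b was lower in WT cDC1 (-0.57) and in WT cDC2 (-0.60) than in WT pDC, and Pprc1 was higher in both (0.88 and 0.89). Ppargc1a was also lower in cKO cDC2 than in WT cDC2 (-1.67, adjusted p = 0.0149), the single call among these pathway lists between genotypes.

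By Pearson correlation over 23 arrays of levels over the array median, the genes most like the mean of the 89 were Snrpd2 (0.98), Bag1 (0.97), Sf3b5 (0.96), Sod2 (0.96) and Psmb3 (0.96). Snrpd2 and Sf3b5 are splicing proteins, Sod2 is the mitochondrial superoxide dismutase and Psmb3 is a proteasome subunit. Cox6a2 was most like Mzb1 (0.98), Siglech (0.98), Pir (0.98), Dntt (0.97) and Ly6d (0.97), of which Siglech and Ly6d are pDC markers. Cox6b2 was most like C1qtnf12 (0.97), Tmem176b (0.97), Klf1 (0.95), Tmem176a (0.95) and Mmp12 (0.95). Ndufaf6 was most like Cyb5r1 (0.93), Cpq (0.92), Gfus (0.92), Tssc4 (0.92) and Hook3 (0.91), and Cox7a1 most like Jazf1 (0.86) and Gp2 (0.86). The arrays share groups and intensity sets, so these values are descriptions.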

How the data were processed

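RNA of 23 samples was hybridised to Affymetrix Mouse Gene 1.0 ST arrays. Per the submitters' processing notes, the authors used Affymetrix Expression Console with RMA, a method that corrects background, normalizes arrays and summarises probes, with versions not given in the sources used here. The deposited values are linear intensity (3.785 to 13980.7), so log2 was taken. The number of arrays limits the precision.

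A probe set was tested if above its array's median on at least 3 arrays, with the brightest single-gene probe set per gene (12157 genes). Means of 6 groups were fitted with limma 3.58.1 (lmFit and eBayes, R 4.3.3, 17 residual degrees of freedom), two-sided, with Benjamini-Hochberg adjustment over all genes tested in each of 12 comparisons, and called at adjusted p under 0.05. The scripts were tested on simulated data. Tables used data.table (version 1.17.8), pandas 2.3.3 and numpy 2.4.6, and figures matplotlib 3.10.9.

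The members and gene lists were chosen with earlier results of these data known. Genes named are, per comparison, up to 4 called members with the largest rise and fall (or the 3 smallest p-values where fewer than 3 were called), the core and tissue-restricted members with their common partners, the genes most like the members' mean, and up to 3 called genes per pathway list. The remaining called members and list genes, those most and least variable, and genes most like single members were added after their values were seen. The intensity sets were drawn from array medians (cuts at 31.3 and 35) after seeing the data.

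Replicate numbers were checked for pairing: same-numbered WT arrays deviated together in all 9 pairs (correlation 0.38 to 0.70). Number and intensity set coincide there, so pairing by number and a shared set cannot be told apart. Over all groups, differently numbered arrays of the same set had a mean correlation of 0.48 (41 pairs). Same-numbered arrays had -0.13 between different sets (16 pairs) and 0.51 within the same set (33 pairs). Same-numbered arrays of WT and cKO cDC1, which also share sets, deviated together in 3 of 3 pairs (0.44 to 0.54). The block called 0 members there as well. In the other groups compared not every pair passed 0.1, with 8 of 13 among cKO arrays. Alternatives were other scalings, filters, weights, blocks, the intensity set as a term, and leaving out each array.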

Additional observations from a re-analysis of the deposited data

Results flagged for a closer look

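Among groups of 4 or 5 arrays, 3 of 54 checks found 1 array standing apart from its group by Dixon's criterion, and chance gives about 1 in 20. Cox7a1 read 5.32 on the first cKO cDC1 array against 5.87 to 5.97 on the other 3. Cox7a1 also read 5.32 on the fifth cKO pDC array against 4.63 to 4.77 on the other 4. Sdhc read 8.68 on the third cKO pDC array against 9.08 to 9.17 on the other 4.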

How the results depend on the processing

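Calls were followed for the named pairs of gene and comparison only, so called members added after their values were seen are not counted here. Of 27 calls among the named pairs, 14 held under every alternative in which the gene was tested. They were Cox6a2 in all 4 comparisons with pDC, Cox6b2 in 3 of its 4, Ndufaf6 against pDC in both genotypes, and Atp5md, Ndufs4 and Sdhd in cKO cDC1 against cKO pDC. The 14 also include both calls of Cox7a1, which the stricter filter removed. It entered the test almost entirely through cDC1, so its calls remain a description. None of the 27 reversed. Of 316 named pairs that were not called, 46 were called under some alternative, and the genotype comparisons kept 0 calls under every one. Counts are given below in the order WT cDC1 against cDC2, WT cDC1 against pDC, WT cDC2 against pDC, then the same in cKO, where the reported counts were 2, 2, 2, 3, 18 and 7.

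The intensity set as a term gave 5, 14, 11, 12, 56 and 37. A replicate block over all arrays gave 6, 4, 21, 70 and 26 from the second comparison on. Of all 12157 genes, it called 1493, 1361, 1140, 2711 and 2218 higher and 906, 923, 770, 1167 and 1264 lower. A random replicate block gave 4, 4, 6, 53 and 16 in the same comparisons. Of all genes, it called 1474, 1361, 851, 2399 and 2144 higher and 884, 891, 808, 1224 and 1229 lower. A replicate block within the groups compared, chosen after seeing the data, gave 7, 11, 4, 6, 59 and 21, against 16.3%, 22.5%, 15.9%, 10.6%, 23.3% and 34.1% of all genes. WT numbers coincide with the intensity set, so this block and the set cannot be told apart there, and among the cKO groups compared not every same-numbered pair deviated together. Centring arrays on their median gave 4 and 4 in the WT comparisons with pDC and 39 and 15 in those of cKO. Of all genes, it called 1330, 1252, 1898 and 1950 higher and 710, 678, 1089 and 1023 lower. Array weights gave 8, 82 and 52 in cKO, against 17.7%, 51.8% and 34.5% of all genes. Quantile normalization gave 5 in cKO cDC1 against cDC2, with 619 of all genes higher and 753 lower. No filter gave 10 in cKO cDC1 against pDC. In WT cDC1 against cDC2, fitting only the groups compared gave 1, with 294 of all genes higher and 311 lower. Leaving out the 3 WT arrays numbered 1 also gave 1, with 214 of all genes higher and 216 lower. Over all these settings the share of all genes called in cKO cDC1 against pDC ran from 11.8% (no filter) to 51.8% (array weights), beside 20.4% as reported. For settings not named, counts stayed within 1.5 times; the cause of the changes was not tested.

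Leaving out 1 array at a time gave 0 to 1, 2 to 5, 2 to 5, 2 to 3, 7 to 38 and 2 to 10. The 0 came without WT cDC1 array 2, and both values of 5 without WT pDC array 3. No share of all genes was taken beside these counts. Other scalings moved the median of all genes by under 0.1 (log2).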
